A study of Homo sapiens and Mus musculus with 33 samples.

Results

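To follow the response of the transcriptome to class I HDAC inhibition in colon carcinoma cells, RNA-seq libraries of HCT116 cells were compared after treatment with MS275 or with its solvent. The 8 libraries, 4 per treatment and numbered 1 to 4 in each, were taken from the 33 libraries of the series. HCT116 is an established epithelial line from a human colon carcinoma, so that the results describe 1 line and not tumours in general. All cells were grown in the same DMEM medium with serum. The MS275 group received 5 µM of the drug for 18 h, and the DMSO group an equal amount of solvent for 18 h. Poly(A) RNA was sequenced, and reads were counted per gene. The methods of the study describe the replicates as biological, but neither they nor the labels say whether a replicate number marks a shared culture or day.

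Histone deacetylases (HDACs) remove acetyl groups, and also the longer crotonyl groups, from lysines of histones. The class I enzymes HDAC1, HDAC2 and HDAC3 work inside corepressor complexes that are recruited to promoters and enhancers, and they also act on proteins other than histones. Inhibitors of these enzymes are known to raise some transcripts and lower others, including genes that are silent in the cell type treated.

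The libraries held between 35608533 and 53415604 counts. The epithelial markers EPCAM, CDH1, KRT8, KRT18, KRT19, CLDN3, CLDN4 and CLDN7 were all tested, and their summed level was 3883 to 5584 CPM (counts scaled to a common library total) with DMSO and 4863 to 6410 CPM with MS275. Of these 8 markers 4 were higher with MS275 and 2 lower in the test made across all genes (adjusted p under 0.05), which called 7.83% of genes higher and 6.55% lower. Of 8 colon markers 3 had enough counts for a test, CDX2 and KRT20 among them, CDX1 had no count and LGALS4 averaged 0.125 counts per library. Of the 3 tested CDX2 was called lower, but not without replicate 1, 2 or 4. The 3 tested colon markers summed to 34.1 to 36.6 CPM with DMSO and 28.9 to 35.98 CPM with MS275. Of 14 immune markers 12 were not tested and 0 was called. The 2 tested summed to 5.69 to 8.82 CPM with DMSO and 4.36 to 11.2 CPM with MS275. PTPRC averaged 1 count, and CD3D, CD2, MS4A1 and CD14 had none. Of 10 stromal markers 4 were tested, and 1 was called higher, though not without replicate 1. The summed level of these 4 was 9.60 to 10.6 CPM with DMSO and 16.8 to 20.7 CPM with MS275, mostly through COL1A1. Of 6 endothelial markers 1 was tested, with a summed level of at most 0.903 CPM. In bulk RNA such as this, fewer cells of a type and less RNA per cell cannot be told apart.

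Both libraries of replicate 3 stood apart from the rest. Their 100 highest genes took 28.5% and 29.8% of the counts, against 19.3% to 20.2% in the other 6 libraries, and mitochondrial genes took 9.28% and 10.3%, against 1.57% to 3.19%. Results are therefore given with all 4 replicate numbers and, where this moves them, with a number left out in both treatments. Deviations from the group mean were shared by libraries with the same number. The correlation of these deviations across genes was 0.226, 0.151, 0.433 and 0.460 for numbers 1 to 4, and the number was used as a block. Number 2 was the least distinct. The correlation was 0.239 between its DMSO library and the MS275 library numbered 4, and 0.219 between its MS275 library and the DMSO library numbered 4, so that both libraries numbered 2 were closer to number 4 than to each other.

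Of 35805 genes in the table, 14961 had enough counts for a test. With the replicate number as a block, 1171 genes (7.83%) were higher and 980 genes (6.55%) were lower with MS275, at an adjusted p under 0.05 in edgeR's quasi-likelihood test with Benjamini-Hochberg adjustment. Without the block only PAG1 passed, while 987 genes had an unadjusted p under 0.05. All results below, unless stated otherwise, come from the fit with the block and rest on the pairing of the libraries. The count was 968, 994, 2584 and 1037 genes without replicate numbers 1, 2, 3 and 4, respectively. In these 4 fits 658 of the 2151 genes (30.6%) were called every time, 402 higher and 256 lower, and 181 were called in none. No gene changed direction while called.

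Rises were larger than falls, and the falling genes were the more abundant ones. The median log2 fold change was 0.57 among the genes that rose and −0.39 among those that fell. A change of at least 1 on the log2 scale was reached by 212 of the rising genes (18.1%) but by 16 of the falling genes (1.63%). A change of less than 0.5 was seen in 477 rising (40.7%) and 710 falling genes (72.4%). The median level with DMSO was 24.99 CPM for rising and 81.8 CPM for falling genes, compared to 21.8 CPM over all genes tested. The direction was the same in all 4 pairs for 1152 of the rising and 955 of the falling genes. The 4 MS275 libraries lay entirely above or below the 4 DMSO libraries in 346 rising genes (29.5%) and 165 falling genes (16.8%), while this was so in 5.37% of all genes tested. In most called genes the 2 treatments therefore overlapped, and the call rests on the differences within pairs.

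The 10 largest rises among genes with at least 100 counts on average were those of NCAM1, AMIGO2, EFR3B, PLXNA2, PAG1, RUNX2, FAT4, RCAN2, SPP1 and CNTNAP2. Several of them act in contacts between cells: NCAM1, AMIGO2, FAT4 and CNTNAP2 are adhesion proteins, best known from the nervous system in the case of NCAM1 and CNTNAP2, and PLXNA2 is a semaphorin receptor. Their starting levels were low, with a mean between 0.921 and 4.33 CPM in DMSO.

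NCAM1 (chr11:112961247-113278436, plus strand) was at 0.848, 1.35, 0.231 and 3.49 CPM in DMSO replicates 1 to 4 and at 5.62, 13.5, 6.57 and 13.4 CPM in MS275 replicates 1 to 4. The groups did not overlap, and the fitted rise was 8.30-fold (log2 fold change 3.05 ± 0.40 SE, adjusted p = 0.00061). PAG1, an adaptor that holds the kinase CSK at the membrane, was at 2.41, 2.21, 1.99 and 3.02 CPM with DMSO and at 14.9, 17.6, 12.5 and 18.7 CPM with MS275. It rose 6.598-fold (2.72 ± 0.20, adjusted p = 4.9e-05), and as its spread within both groups was small, it also passed without the block (adjusted p = 0.0052). CNTNAP2 (chr7:146116361-148420998, plus strand) was at 3.62, 6.67, 1.73 and 5.31 CPM with DMSO and at 12.4, 33.2, 13.9 and 24.7 CPM with MS275, a rise of 4.95-fold (2.31 ± 0.20, adjusted p = 6.6e-05) with no overlap. These 3 genes remained called with any 1 replicate number left out.

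The other 7 of these genes lost their call with at least 1 replicate number left out, although their log2 fold changes stayed between 1.603 and 3.31 in those fits. AMIGO2, EFR3B, RUNX2, FAT4, RCAN2 and SPP1 had no count in DMSO replicate 3, and PLXNA2 was at 0.0289 CPM there. AMIGO2 (chr12:47075707-47079951, minus strand) was at 1.03, 1.72, 0 and 1.41 CPM with DMSO and at 5.57, 7.89, 3.86 and 5.28 CPM with MS275, so that the groups did not overlap and the fitted rise was 7.12-fold (2.83 ± 0.65, adjusted p = 0.013). It lost its call without replicate 1 (adjusted p = 0.056) and without replicate 2 (0.066). RUNX2, a transcription factor of bone, was lost without the same numbers (0.067 and 0.079), as was SPP1, which encodes osteopontin (0.084 and 0.20). PLXNA2 was lost without replicate 1 (0.058), and EFR3B (0.072), FAT4 (0.11) and RCAN2 (0.16) were lost without replicate 2. All 7 remained called without replicate 3.

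The 10 largest falls were those of GCNT3, MALL, IKBKG, TNFSF18, MKX, TMEM80, CLDN2, RP11-345J4.5, AC091729.9 and JADE2. MKX, a homeobox transcription factor known from tendon, lies at chr10:27672875-27746060 on the minus strand. It was at 51.7, 55.3, 33.3 and 65.2 CPM with DMSO and at 25.9, 18.1, 11.7 and 23.6 CPM with MS275. The groups were fully separate, and the level was 2.63-fold lower (−1.40 ± 0.12, adjusted p = 6.6e-05). JADE2 (chr5:134524312-134583230, plus strand), a PHD finger protein found in histone acetyltransferase complexes of the HBO1 type, was at 66.9, 78.7, 61.6 and 71.2 CPM with DMSO and at 31.4, 35.3, 26.4 and 38.1 CPM with MS275. Again the groups did not overlap (2.13-fold lower, −1.09 ± 0.09, adjusted p = 6.6e-05). AC091729.9, a locus on chromosome 7 with no match in the annotation used here, fell 2.15-fold, and with MKX and JADE2 it was called whichever number was left out.

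The remaining 7 falls lost their call with at least 1 replicate number left out. Their log2 fold changes lay between −2.37 and −0.84 in those fits, nearest to 0 in MALL without replicate 2. GCNT3, an enzyme of mucin glycosylation, fell 3.77-fold with all 4 pairs but lost its call without each number in turn (adjusted p = 0.076, 0.12, 0.051 and 0.074). MALL was at 170, 209, 14.1 and 99.9 CPM with DMSO and at 146, 14.8, 11.5 and 25.8 CPM with MS275. The groups overlapped widely, and the call was lost without replicate 2 (0.11) or 4 (0.080). IKBKG, a subunit of the IκB kinase complex with a near-identical pseudogene whose reads can be confused with its own, was at 22.1 CPM in DMSO replicate 3 and at 2.74 to 5.63 CPM in the other DMSO libraries, and was lost without replicate 3 (0.10) or 2 (0.11). TNFSF18 was lost without replicate 2 (0.14) or 4 (0.19), and TMEM80 without replicate 1 (0.051). CLDN2, a claudin that forms cation channels, was lost without replicate 1 (0.13), 2 (0.13) or 4 (0.086), and RP11-345J4.5 without replicate 1 (0.058), 2 (0.10) or 3 (0.064).

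The promoters of CNTNAP2 and AMIGO2, which rose, and of MKX and JADE2, which fell, are shown. These genes were taken from the largest rises and falls named above. Each run holds 250 bases before to 50 bases after the RefSeq gene start on GRCh38.p14, from 5′ to 3′ on the strand of the gene, and capitals mark the GC box GGGCGG or its reverse complement CCGCCC in each window.
CNTNAP2, chr7:146116551-146116850, plus strand: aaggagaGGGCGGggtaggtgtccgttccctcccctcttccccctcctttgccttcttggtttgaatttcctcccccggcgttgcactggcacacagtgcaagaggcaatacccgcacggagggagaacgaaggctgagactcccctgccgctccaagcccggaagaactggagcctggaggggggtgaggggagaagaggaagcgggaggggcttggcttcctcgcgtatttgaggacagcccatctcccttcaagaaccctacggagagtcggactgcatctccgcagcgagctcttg
AMIGO2, chr12:47079902-47080201, minus strand: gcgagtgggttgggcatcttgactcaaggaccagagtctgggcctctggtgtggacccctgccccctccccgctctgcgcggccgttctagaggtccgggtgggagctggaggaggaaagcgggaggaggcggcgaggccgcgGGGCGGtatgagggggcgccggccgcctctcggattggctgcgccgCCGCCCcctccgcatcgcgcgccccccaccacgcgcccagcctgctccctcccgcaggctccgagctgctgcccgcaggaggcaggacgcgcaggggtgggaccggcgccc
MKX, chr10:27745770-27746069, minus strand: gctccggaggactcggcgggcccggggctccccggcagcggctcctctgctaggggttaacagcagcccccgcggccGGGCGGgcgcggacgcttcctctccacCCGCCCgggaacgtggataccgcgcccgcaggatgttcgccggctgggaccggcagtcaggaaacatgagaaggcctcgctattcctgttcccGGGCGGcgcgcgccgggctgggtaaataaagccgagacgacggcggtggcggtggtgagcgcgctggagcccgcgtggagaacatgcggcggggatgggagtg
JADE2, chr5:134523759-134524058, plus strand: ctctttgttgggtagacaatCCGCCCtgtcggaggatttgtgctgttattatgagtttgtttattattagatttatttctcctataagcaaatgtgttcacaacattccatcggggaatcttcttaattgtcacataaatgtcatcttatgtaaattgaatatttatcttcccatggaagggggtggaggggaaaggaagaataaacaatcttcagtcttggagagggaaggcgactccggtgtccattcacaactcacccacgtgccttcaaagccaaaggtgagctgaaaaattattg

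The window of CNTNAP2 held 1 GC box at 61.7% GC, that of AMIGO2 2 boxes at 75.3% GC, that of MKX 3 boxes at 72.3% GC and that of JADE2 1 box at 40.3% GC. The RefSeq start of JADE2 lies upstream of the start in the count table. The ChIP-seq tables of the same line give H3K18ac and H3K18cr, the acetylated and the crotonylated form of histone H3 lysine 18, in 3 libraries per treatment. No peak of these tables lay within 1 kb of the start of CNTNAP2. The MKX promoter peak (chr10:27741301-27746850) was lower with MS275 in each pair, by 0.74, 0.85 and 1.26 on the log2 scale for H3K18ac and by 1.38, 1.00 and 0.70 for H3K18cr in replicates 1 to 3. The JADE2 promoter peak (chr5:134523001-134529450) changed by −0.01, −1.24 and −1.59 for H3K18ac and by −1.15, −1.04 and −0.56 for H3K18cr. At the AMIGO2 promoter (chr12:47078851-47082150) the changes had both signs, with 0.84, −0.23 and −0.43 for H3K18ac and −0.06, 0.21 and 0.29 for H3K18cr. No test was made for single peaks.

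**Figure D1:**
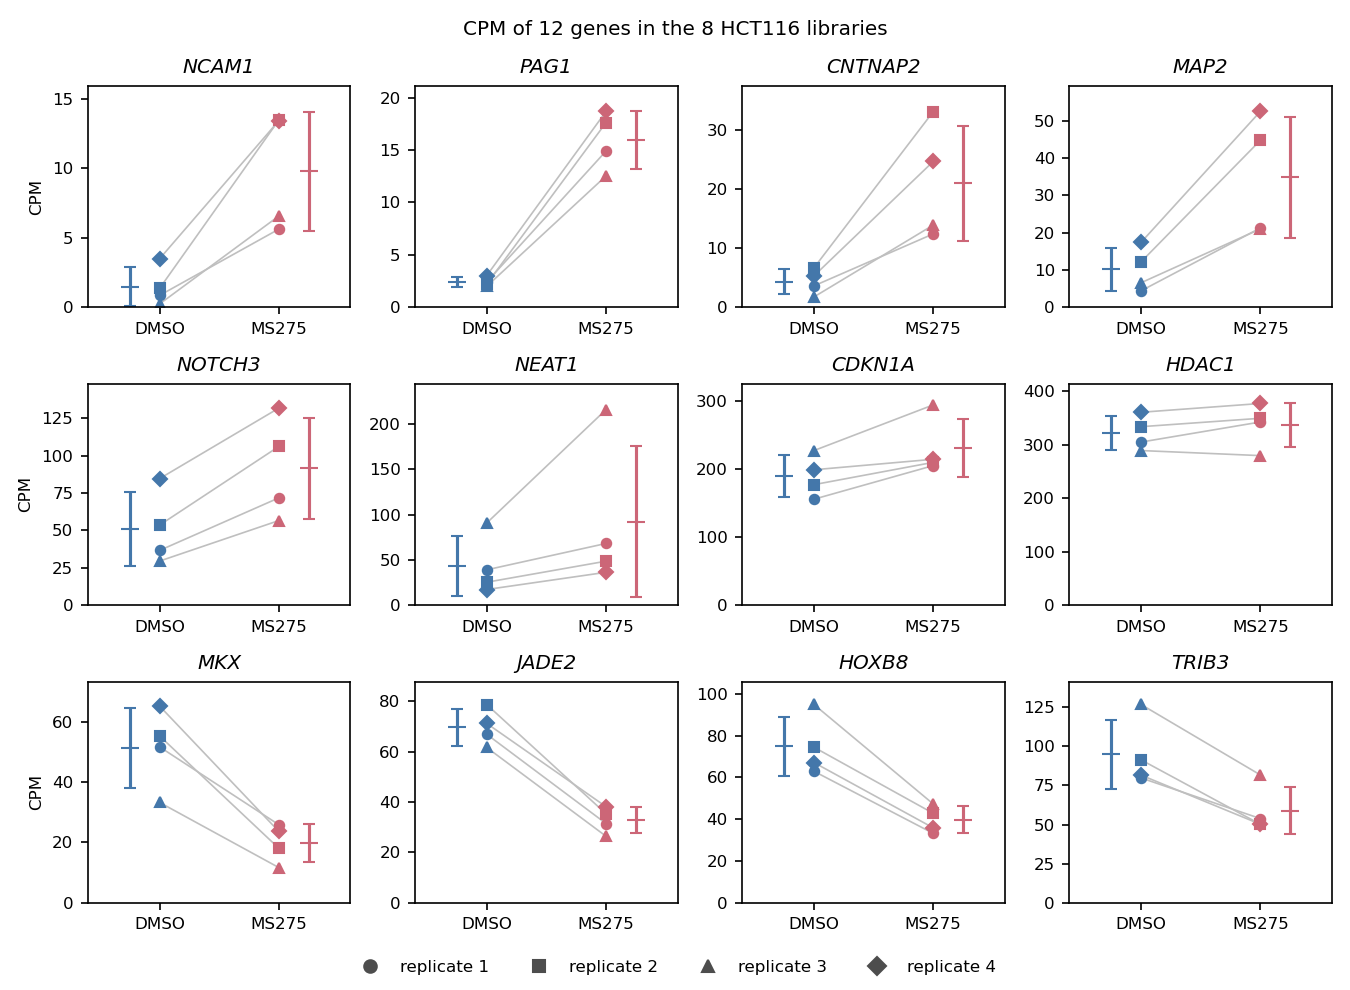
CPM of 12 genes in each HCT116 library, with DMSO in blue and MS275 in red; grey lines join libraries with the same replicate number, and bars beside the points give mean and SD. NCAM1, PAG1, CNTNAP2, MAP2, MKX, JADE2 and HOXB8 separate the treatments completely, whereas NOTCH3, NEAT1, CDKN1A and TRIB3 move in every pair although the groups overlap, and HDAC1 was not called.

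The share of rising and falling genes depended on the expression level (mean log2 CPM over all 8 libraries). Among the 2993 genes of the lowest quintile 1.54% rose and 0.0668% fell. In the next quintiles the share that rose was nearly even, at 9.16%, 9.89%, 9.69% and 8.86%, while the share that fell went up from 1.54% to 5.75%, 9.56% and 15.8%. The median log2 fold change moved from 0.27 in the lowest to −0.06 in the highest quintile, against 0.01 over all genes tested. Without replicate 3, 9.79% of the highest quintile rose and 20.4% fell, and without replicate 1, 2 or 4 between 4.01% and 4.88% rose and between 6.22% and 7.72% fell. Few of the lowest genes can pass a test at this depth, and the smaller share called there is no measure of how many responded.

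**Figure D2:**
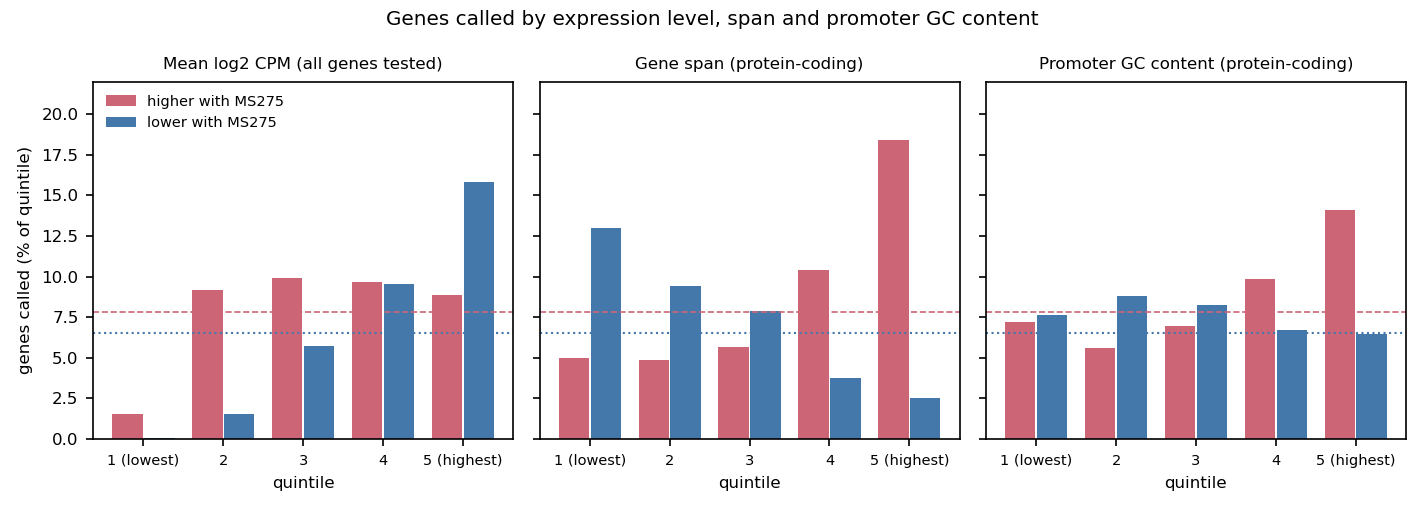
Share of genes called higher (red) and lower (blue) with MS275 in quintiles of mean expression, of gene span and of promoter GC content, with the shares over all genes tested (7.83% and 6.55%) as dashed and dotted lines. Falling genes become more frequent with expression, from 0.0668% to 15.8%, and rising genes with gene span, from 4.99% to 18.4%.

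Gene span, the distance from the first to the last base of the gene, also went with direction. Among protein-coding genes in the shortest quintile (median 5824 bp), 4.99% rose and 13.003% fell. In the longest quintile (median 159060 bp) 18.4% rose and 2.52% fell. The shares in between were 4.84%, 5.69% and 10.4% for rises and 9.41%, 7.86% and 3.76% for falls. The median log2 fold change was −0.10 in the shortest and 0.17 in the longest quintile. In the longest quintile the median was above 0 in each pair (0.22, 0.13, 0.14 and 0.15), whereas in the shortest it was below 0 in pairs 1, 2 and 4 (−0.20, −0.08 and −0.12) and at 0.01 in pair 3. With any 1 number left out, rises were more frequent in the longest than in the shortest quintile (8.85%, 9.16%, 20.4% and 9.46% against 2.88%, 2.45%, 5.02% and 3.07% without numbers 1 to 4), and falls were less frequent (1.44%, 1.01%, 2.99% and 1.21% against 4.67%, 6.25%, 19.8% and 5.56%). The median span was 74053 bp for rising, 15450 bp for falling and 29175 bp for all genes tested.

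The order by span was also present within tertiles of expression. Among the most highly expressed protein-coding genes, 4.74% of the shortest tertile rose and 23.9% fell, against 16.7% and 5.64% of the longest. In the middle tertile of expression these shares were 4.95% and 11.2% for the shortest and 17.3% and 2.79% for the longest genes. In the lowest tertile, 5.09% of the shortest and 12.6% of the longest genes rose, and 1.11% and 0.627% fell. Exonic length gave the same order, with 4.22% rising and 10.9% falling in its shortest quintile and 15.6% and 3.52% in its longest. Sorted by the number of exon blocks, 6.27% rose and 9.71% fell in the lowest quintile and 15.0% rose and 3.56% fell in the highest. These measures go together, and they were not separated from each other.

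The same contrast was visible in the raw shares of counts. The longest quintile took 11.8%, 12.7%, 9.35% and 13.9% of nuclear protein-coding counts in DMSO replicates 1 to 4 and 13.6%, 13.6%, 9.87% and 15.4% with MS275, higher in every pair. The shortest quintile took 27.5%, 27.7%, 33.8% and 26.4% with DMSO and 25.1%, 26.98%, 33.8% and 24.998% with MS275, lower in pairs 1, 2 and 4 and nearly the same in pair 3. Replicate 3 differed from the other numbers by more than MS275 differed from DMSO. Whether RNA quality or fragment length moved with treatment cannot be read from a count table, and its part in the result was not tested.

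**Figure D3:**
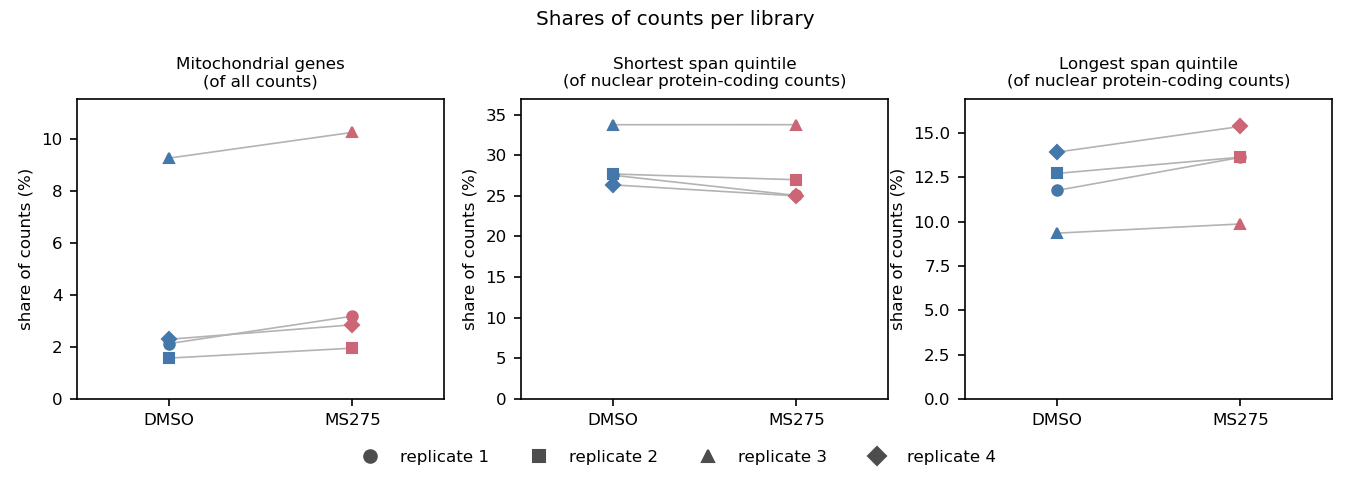
Share of counts per library in mitochondrial genes, in the shortest and in the longest span quintile of nuclear protein-coding genes; grey lines join libraries with the same replicate number. Mitochondrial genes and the longest quintile are higher with MS275 in each of 4 pairs, and replicate 3 lies apart in each panel.

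Promoter composition was compared in the same way. A RefSeq promoter was matched to 10339 of 12918 protein-coding genes tested (80.0%). In the quintile with the highest GC content (median 77.0%) 14.1% of genes rose and 6.48% fell, whereas in the lowest quintile (median 51.7%) 7.21% rose and 7.64% fell. By the ratio of observed to expected CpG, 9.19% rose and 6.82% fell in the lowest quintile and 7.64% rose and 9.19% fell in the highest. The GC box, searched on both strands, was found in 78.0% of promoters of rising genes, 68.3% of falling genes, 70.8% of genes that were not called and 44.6% of all 27326 promoters in the table. The TATA box (TATAAA, on the strand of the gene, 40 to 10 bases before the start) was found in 26 of 904 rising genes (2.88%), in 1.40% of falling genes and in 1.54% of the rest. The E-box CACGTG was found in 9.18% of rising, 13.5% of falling and 10.0% of other promoters. The CCAAT box (CCAAT) was present in 37.6%, 34.7% and 36.7% of these classes, and the site TGACG, which also stands inside the CRE TGACGTCA, in 27.7%, 35.6% and 34.5%. The full CRE was found in 3.10%, 3.32% and 3.24%.

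Nearly all called genes were protein-coding. Of 12918 protein-coding genes tested 1146 rose (8.87%) and 944 fell (7.31%). Among 1323 long noncoding RNAs 8 rose (0.605%) and 13 fell (0.983%). Gene types were not matched for expression level, and in the lowest expression quintile of all genes tested only 1.54% rose and 0.0668% fell. No pseudogene was called among 42 tested. Of 579 genes without a match in the annotation 15 rose and 23 fell, and among 99 genes of other types 2 rose, both of the provisional type TEC.

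NEAT1, the architectural RNA of nuclear paraspeckles (chr11:65422774-65445540, plus strand), was at 38.9, 25.2, 90.7 and 17.1 CPM with DMSO and at 68.1, 48.5, 216 and 36.2 CPM with MS275. Replicate 3 was high in both groups, which overlapped, yet the level rose in each pair by a similar factor (2.03-fold, 1.02 ± 0.09, adjusted p = 7.4e-05). RP4-665J23.1 rose 3.29-fold with all 4 pairs but lost its call without numbers 1 (adjusted p = 0.057), 2 (0.059) and 4 (0.070). HOXA10-AS fell 1.90-fold (−0.93 ± 0.13, adjusted p = 0.0010), from 18.5, 14.9, 55.1 and 15.996 CPM to 10.6, 8.59, 24.6 and 8.36 CPM, and kept its call throughout. ELFN1-AS1 was lower in every MS275 library (1.82-fold, adjusted p = 0.0095; 0.057 without replicate 1 and 0.056 without replicate 2). RP11-277P12.20 fell 2.04-fold and was lost without numbers 1 (0.082), 2 (0.099) and 4 (0.32). The kit kept strand, but no source used here gives the strand setting of the counts, so that reads of antisense RNAs cannot be told apart from those of overlapping genes.

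The most abundant genes moved little. Of the 5 abundant genes that fell, EEF1A1, the elongation factor of translation, was 1.13-fold lower, the ribosomal protein RPS2 1.15-fold, the actin-binding PFN1 1.18-fold and the cytokine MIF 1.20-fold lower. AP000350.10, which overlaps MIF, was also 1.20-fold lower, and reads of this pair cannot be told apart. Each of the 5 lost its call without replicate 1 (adjusted p = 0.11, 0.067, 0.072, 0.12 and 0.18, in the order named). RPS2, MIF and AP000350.10 also lost it without replicate 2 (0.059, 0.082 and 0.097), and all but RPS2 without replicate 4 (0.079, 0.053, 0.091 and 0.13).

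The 5 abundant genes that rose were all encoded by the mitochondrial genome. MT-ND4, a subunit of complex I, was at 3248, 2484, 16545 and 3646 CPM with DMSO and at 5037, 3072, 21389 and 4032 CPM with MS275. It was higher in each pair but not between the groups as a whole (1.29-fold, 0.36 ± 0.06, adjusted p = 0.0027). The gene lists used from here on were written with earlier results of these data known, and their counts are not independent evidence of a direction. Lists differed in gene span and expression level, which also went with direction, and were not matched for them. Over all genes tested 7.83% rose and 6.55% fell. Of the 13 protein-coding genes of the mitochondrial genome 11 rose, with a median log2 fold change of 0.32 (0.60, 0.29, 0.31 and 0.21 in pairs 1 to 4), and 8, 7, 11 and 10 rose without numbers 1 to 4. MT-CO3 and MT-CO2 were called in each of these fits, MT-ATP8 was lost without replicate 2 (adjusted p = 0.055) and MT-ATP6 without replicates 1 (0.052) and 2 (0.076). Mitochondrial genes took 2.13%, 1.57%, 9.28% and 2.29% of counts with DMSO and 3.19%, 1.95%, 10.3% and 2.85% with MS275.

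In the lists of nuclear respiratory subunits and of mitochondrial ribosomal proteins all calls were falls, although most members were not called. Of 79 nuclear subunits of oxidative phosphorylation that were tested 16 fell (20.3%) and none (0) rose, with a median of −0.17. Over all genes tested 6.55% fell and 7.83% rose. Without numbers 1 to 4, 3, 13, 27 and 5 of these subunits fell. NDUFB8 and NDUFC1 of complex I were both 1.33-fold lower (−0.42 ± 0.08 and −0.42 ± 0.09). Of 76 mitochondrial ribosomal proteins 23 fell (30.3%) and 0 rose, with a median of −0.22 that was below 0 in each pair (−0.34, −0.15, −0.15 and −0.26). Here 8, 14, 30 and 9 fell without numbers 1 to 4. MRPL15 was at 76.8, 58.7, 76.7 and 59.4 CPM with DMSO and at 55.6, 44.2, 44.4 and 43.6 CPM with MS275, so that the groups did not overlap (1.44-fold lower, adjusted p = 0.0036). Called subunits of the same respiratory complexes thus moved in opposite directions, higher when encoded in mitochondria and lower when encoded in the nucleus. The share of nuclear subunits that fell was no larger than among short, highly expressed genes in general. In the shortest tertile of the most highly expressed protein-coding genes 23.9% fell.

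In further lists of growth and protein synthesis all calls were falls as well, while 7.83% of all genes tested rose and 6.55% fell. Of 55 genes of ribosome biogenesis 16 fell (29.1%) and 0 rose (median −0.15), and 7, 7, 19 and 6 fell without numbers 1 to 4. UBTF, which activates transcription of ribosomal RNA genes, was 1.57-fold lower (−0.65 ± 0.07, adjusted p = 0.00023), with 138 to 190 CPM in DMSO and 84.6 to 121 CPM in MS275 libraries. RRP1 and NIP7, both needed for the large ribosomal subunit, were 1.45-fold and 1.43-fold lower. Of 58 splicing factors 16 fell (27.6%) and 0 rose (median −0.16), and 11, 6, 20 and 4 fell without numbers 1 to 4. U2AF2, which binds the 3′ splice site, was 1.51-fold lower (−0.60 ± 0.06, adjusted p = 0.00014) and the SR proteins SRSF5 and SRSF7 were 1.33-fold and 1.28-fold lower. Of 20 cytosolic aminoacyl-tRNA synthetases 7 fell (35%, median −0.12), among them YARS, 1.33-fold lower. With a number left out 3, 2, 7 and 1 of them fell.

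Cytosolic ribosomal proteins were the list whose count depended most on replicate 3. With all 4 pairs 4 of 79 fell (5.06%), which is near the 6.55% of all genes tested. Without replicate 3, 32 fell, and without numbers 1, 2 and 4 there were 0, 2 and 1. Among the 3 of them named here, FAU was lost without replicates 1 and 4, RPL9 without 1, 2 and 4, and RPS2 without 1 and 2. Several of these genes have processed copies elsewhere in the genome, and their counts are uncertain for that reason.

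Of 46 proteasome genes 14 fell (30.4%) and 1 rose (2.17%), against 6.55% and 7.83% of all genes tested. The median was −0.19, and 3, 7, 17 and 4 fell without numbers 1 to 4. PSMB5, the catalytic subunit with chymotrypsin-like activity, was at 277, 205, 229 and 167 CPM with DMSO and at 163, 144, 159 and 118 CPM with MS275 (1.49-fold lower, −0.57 ± 0.07, adjusted p = 0.00041). The highest MS275 library lay just below the lowest DMSO library. The gene that rose was PSMB9, a subunit of the immunoproteasome, at 3.26, 4.20, 3.21 and 8.19 CPM with DMSO and 8.61, 10.9, 8.45 and 13.8 CPM with MS275 (2.34-fold, adjusted p = 0.0035). Chaperones of the heat shock response were split, with 10 of 36 lower (27.8%) and 4 higher (11.1%). Without numbers 1 to 4, 5, 7, 11 and 3 were lower. CCT5, a subunit of the TRiC chaperonin, was 1.248-fold lower, and HSPA4L, a nucleotide exchange factor of HSP70, was 1.56-fold higher. In the endoplasmic reticulum list 4 of 23 rose (17.4%), among them the chaperone HSPA5 (1.27-fold, adjusted p = 0.0026), and 0 fell. Only 1 gene of this list rose without number 1, 2 or 4, and 5 rose without number 3.

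The list with the largest share of falling genes was that of the amino acid response driven by ATF4. Of 27 genes 12 fell (44.4%) and 1 rose (3.70%), against 6.55% and 7.83% of all genes tested. The median was −0.20, with 9, 7, 13 and 8 falling without numbers 1 to 4. ATF5 was 1.97-fold lower (−0.97 ± 0.12, adjusted p = 0.00046) and PCK2, the mitochondrial form of a gluconeogenic enzyme, 1.49-fold lower. TRIB3, a pseudokinase induced by ATF4, was at 79.7, 91.3, 127 and 81.5 CPM with DMSO and at 53.8, 50.1, 81.6 and 50.1 CPM with MS275. Only MS275 replicate 3 reached the DMSO range, and the level was 1.62-fold lower (−0.69 ± 0.08, adjusted p = 0.00037). The gene that rose was CEBPB, 1.31-fold higher with all 4 pairs and lost without replicates 2 and 4.

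In lipid synthesis rises outnumbered falls, although most members were not called. Of 27 genes of cholesterol synthesis and uptake 8 rose (29.6%) and 1 fell (3.70%), with a median of 0.20. Without numbers 1 to 4, 4, 3, 8 and 2 of them rose. The gene that fell was ACAT2 (1.41-fold lower, adjusted p = 0.0050), which makes acetoacetyl-CoA. Of 23 genes of fatty acid synthesis and storage 5 rose (21.7%) and 1 fell (4.35%), with a median of 0.15. ELOVL5, an elongase of polyunsaturated fatty acids, was 1.47-fold higher, and the acyl-CoA synthetases ACSL4 and ACSL3 were 1.46-fold and 1.40-fold higher. In fatty acid oxidation and crotonyl-CoA metabolism 1 of 28 genes rose (3.57%). This was CPT1A, which carries fatty acids into mitochondria (137 to 159 CPM with DMSO and 188 to 222 CPM with MS275, 1.41-fold, adjusted p = 0.0015). Glycolytic genes were called in both directions, 2 of 23 each (8.70%, against 7.83% higher and 6.55% lower over all genes tested), with ENO2 1.71-fold and HK1 1.32-fold higher. In the hypoxia list 5 of 18 rose (27.8%) and 3 fell (16.7%), with PLOD2 1.501-fold higher and ADM 1.49-fold lower.

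Genes of the cell division cycle did not move as a block. Of 54 genes of DNA replication and nucleotide supply 12 fell (22.2%) and 1 rose (1.85%), against 6.55% and 7.83% of all genes tested. The median was −0.16, with 9, 6, 16 and 6 falling without numbers 1 to 4. TYMS, the thymidylate synthase, was at 340, 283, 312 and 228 CPM with DMSO and at 270, 186, 221 and 177 CPM with MS275 (1.37-fold lower, −0.45 ± 0.07, adjusted p = 0.0012). MCM5, a subunit of the replicative helicase, was 1.35-fold lower (adjusted p = 0.0014). In both genes the groups overlapped while each pair fell. Of 71 genes of mitosis and the spindle 9 rose and 9 fell (12.7% each), and the median was −0.00. ANLN, a scaffold of the contractile ring, was 1.39-fold higher (adjusted p = 0.0014), whereas the kinase PLK1 was 1.249-fold lower (adjusted p = 0.010). With a number left out 3 to 6 of these genes rose and 2 to 8 fell.

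Shorter lists of cell cycle and death genes are to be read against the 7.83% of all genes tested that rose and the 6.55% that fell. Among 20 G1 cyclins, their kinases and E2F factors 2 rose (10%) and 3 fell (15%). CDK6 was higher in all MS275 libraries (1.35-fold, 0.43 ± 0.08, adjusted p = 0.0049), and CDK4 was 1.26-fold and TFDP1 1.249-fold lower. Of 15 CDK inhibitors and other brakes of G1 2 rose (13.3%) and 1 fell (6.67%). CDKN2B, which encodes p15, was at 5.67, 12.5, 6.13 and 13.7 CPM with DMSO and at 13.4, 25.1, 11.8 and 21.4 CPM with MS275 (1.94-fold, 0.95 ± 0.16, adjusted p = 0.0025). CDKN1A, which encodes p21, was at 156, 177, 227 and 199 CPM with DMSO and at 205, 210, 295 and 215 CPM with MS275. It was higher in each pair, with an overlap between the groups (1.22-fold, 0.28 ± 0.07, adjusted p = 0.017), and lost its call without replicate 1 (0.079) or 2 (0.076). Of 32 p53 targets 2 rose (6.25%) and 4 fell (12.5%), and of 15 genes of the BCL2 family 0 rose and 3 fell (20%), including BID (1.40-fold lower, adjusted p = 0.0038). Of 41 genes of homologous recombination and the Fanconi pathway 1 rose (2.44%) and 3 fell (7.32%), and of 7 mismatch repair genes none (0) was called.

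**Figure D4:**
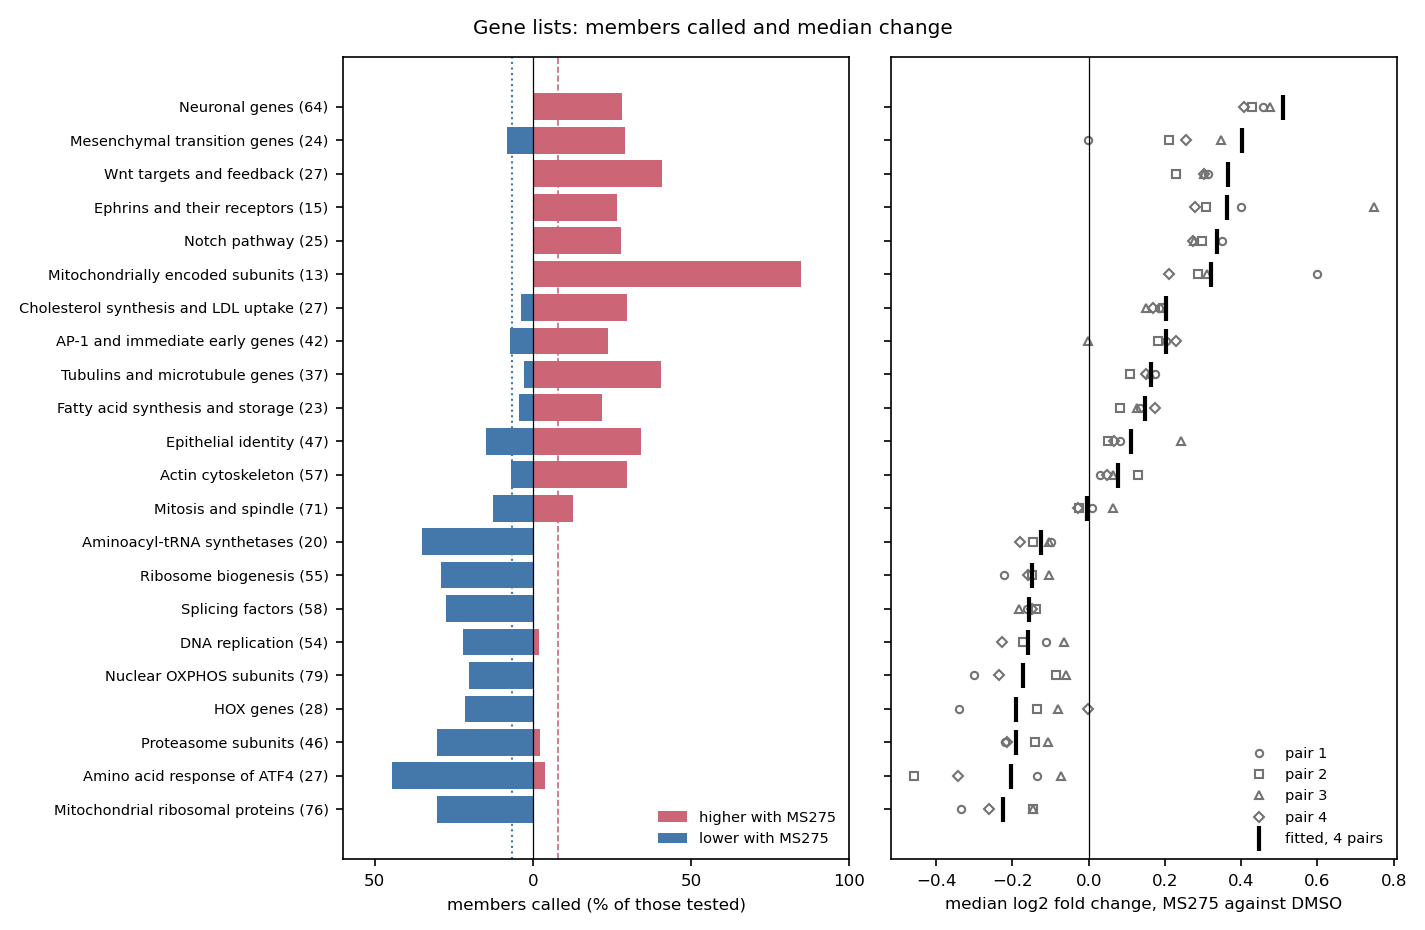
For 22 gene lists, the share of tested members called higher (red, right) or lower (blue, left) with MS275, and the median log2 fold change over the members tested, fitted (black bar) and in each pair (open symbols); dashed and dotted lines give the shares over all genes tested (7.83% and 6.55%), and numbers in brackets the members tested. Mitochondrially encoded subunits, neuronal genes and signalling lists have medians above 0 and lists of growth and protein synthesis below 0.

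In the neuronal list all calls with 4 pairs were rises. Of 64 tested 18 rose (28.1%) and 0 fell, against 7.83% and 6.55% of all genes tested. The median of the list was 0.51 (0.46, 0.43, 0.48 and 0.41 in pairs 1 to 4). The other 38 members in the table had too few counts. Without numbers 1 to 4, 12, 13, 19 and 12 rose, and without replicate 3 there were also 3 that fell. MAP2, a microtubule-associated protein of dendrites, was at 4.40, 12.2, 6.56 and 17.4 CPM with DMSO and at 21.3, 44.8, 21.01 and 52.5 CPM with MS275. Every MS275 library lay above every DMSO library (3.60-fold, 1.85 ± 0.14, adjusted p = 4.9e-05).

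Cytoskeletal genes included several of the same microtubule genes. Of 37 tubulin and microtubule genes 15 rose (40.5%) and 1 fell (2.70%), against 7.83% and 6.55% of all genes tested. Their median was 0.16, with 9, 6, 15 and 9 rising without numbers 1 to 4. KIF5C, a kinesin heavy chain, was 1.82-fold higher with no overlap (adjusted p = 0.0019). The tubulins are close paralogs, and their counts can be split between copies. Of 57 genes of the actin cytoskeleton 17 rose (29.8%) and 4 fell (7.02%, near the share over all genes). Their median was 0.08, with 11, 8, 15 and 8 rising with a number left out. MYL6, a myosin light chain, was 1.31-fold lower (adjusted p = 0.0093).

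In signalling lists active in the intestinal crypt all calls were rises, although most members were not called. Among all genes tested 7.83% rose and 6.55% fell. Of 27 Wnt targets and feedback genes 11 rose (40.7%) and 0 fell, with a median of 0.37 (0.31, 0.23, 0.30 and 0.30 in the pairs), and 7, 6, 12 and 5 rose without numbers 1 to 4. EPHB2, a receptor that positions cells in the crypt, was at 26.3, 47.0, 40.3 and 38.4 CPM with DMSO and at 51.2, 73.0, 68.3 and 66.6 CPM with MS275, without overlap (1.73-fold, 0.79 ± 0.09, adjusted p = 0.00034). EPHB3 was 1.72-fold higher (adjusted p = 0.0058). Of 25 Notch pathway genes 7 rose (28%) and 0 fell, with a median of 0.34, and 5, 4, 7 and 5 rose with a number left out. The receptor NOTCH3 was at 36.6, 53.5, 29.4 and 84.7 CPM with DMSO and at 71.8, 106, 56.6 and 132 CPM with MS275. It was higher in each pair, although DMSO replicate 4 lay above 2 MS275 libraries (1.85-fold, 0.88 ± 0.09, adjusted p = 0.00012). Of 15 ephrins and Eph receptors 4 rose (26.7%) and 0 fell (median 0.36), the same number with any replicate left out. EFNB2 was at 41.9, 42.0, 30.1 and 46.3 CPM with DMSO and at 77.0, 73.5, 56.3 and 83.3 CPM with MS275 (1.81-fold, adjusted p = 0.00011), and EFNA5 rose 7.98-fold from a low level of 0.287 to 0.513 CPM in the DMSO libraries (3.00 ± 0.58, adjusted p = 0.0053).

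Epithelial and mesenchymal lists had calls in both directions, with more rises than falls. Among all genes tested 7.83% rose and 6.55% fell. Of 47 genes of epithelial identity 16 rose and 7 fell (median 0.11), with 11, 9, 15 and 11 rising and 1, 1, 5 and 0 falling without numbers 1 to 4. CDH1, the cadherin of epithelial junctions, was at 71.7, 80.2, 33.7 and 91.1 CPM with DMSO and at 112, 115, 70.4 and 153 CPM with MS275 (1.67-fold, 0.74 ± 0.09, adjusted p = 0.00047), and GRHL1, a transcription factor of epithelia, rose 2.65-fold without overlap (1.40 ± 0.20, adjusted p = 0.0011). Of 24 genes linked to mesenchymal transition 7 rose (29.2%) and 2 fell (8.33%, near the share over all genes). Their median was 0.40, and 4, 5, 8 and 4 rose with a number left out. THBS1, a matrix glycoprotein, was at 15.1, 18.9, 8.79 and 16.4 CPM with DMSO and at 55.3, 55.0, 22.5 and 50.9 CPM with MS275 (3.05-fold, 1.61 ± 0.12, adjusted p = 4.9e-05). The groups did not overlap. Fibronectin (FN1) was 2.16-fold higher, and the protease PLAU 1.47-fold lower (adjusted p = 0.0018). Of 12 absorptive colonocyte genes that could be tested out of 42, 5 rose (41.7%), among them the carbonic anhydrase CA2 (1.39-fold, adjusted p = 0.0039). Of 9 goblet cell genes 0 was called.

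Most stress and immune lists had calls in both directions, and the metal response list in 1. Of 42 AP-1 and immediate early genes 10 rose (23.8%) and 3 fell (7.14%), with a median of 0.20. With a number left out 5, 7, 12 and 5 of them rose. CTGF, a matricellular protein, rose 3.41-fold, from 1.99, 2.16, 3.56 and 2.29 CPM to 11.8, 10.3, 7.37 and 5.35 CPM (1.77 ± 0.31, adjusted p = 0.0035), without overlap. Of 19 genes of MHC class I presentation 6 rose (31.6%) and 1 fell (5.26%), and 3, 3, 5 and 4 rose with a number left out. HLA-F was 2.25-fold and HLA-E 1.48-fold higher, although reads of HLA genes are shared between paralogs. Of 34 interferon response genes 3 rose (8.82%) and 2 fell (5.88%), close to the 7.83% and 6.55% of all genes tested, and each of these lost its call with at least 1 number left out. Of 21 NF-κB targets 2 rose (9.52%) and 3 fell (14.3%), with NFKB1 1.58-fold lower (adjusted p = 0.0018). Of 8 metallothionein and metal response genes 3 rose in every fit, MT1X (1.54-fold), MTF1 (1.47-fold) and MT2A (1.30-fold). Of 26 NRF2 targets 2 rose (7.69%) and 5 fell (19.2%). KEAP1, the adaptor that marks NRF2 for degradation, was at 163, 136, 192 and 113 CPM with DMSO and at 87.6, 70.4, 119 and 71.0 CPM with MS275 (1.74-fold lower, −0.80 ± 0.08, adjusted p = 8.7e-05). Of 35 TGF-β and SMAD genes 4 rose (11.4%) and 2 fell (5.71%), with LTBP1, which binds latent TGF-β, 2.32-fold higher without overlap (adjusted p = 0.00045). Of 57 lysosome and autophagy genes 3 rose and 3 fell (5.26% each, below the 7.83% and 6.55% of all genes tested), with the lipase LIPA 1.55-fold higher and the receptor SQSTM1 1.28-fold lower.

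The transcripts of the inhibited enzymes were not called. HDAC1 was at 305, 334, 289 and 361 CPM with DMSO and at 342, 349, 280 and 377 CPM with MS275 (log2 fold change 0.06 ± 0.06, adjusted p = 0.54). HDAC2 changed by −0.08 ± 0.06 (adjusted p = 0.46) and HDAC3 by 0.14 ± 0.08 (adjusted p = 0.27). As MS275 blocks the activity of these proteins, their transcripts do not check the treatment labels. Of 34 subunits of HDAC corepressor complexes 2 rose and 2 fell (5.88% each, against 7.83% and 6.55% of all genes tested), with MBD3 1.39-fold lower (adjusted p = 0.0028). Of 30 acetyltransferases and readers of acylated lysine 3 rose and 3 fell (10% each). MLLT3, whose YEATS domain binds acyl-lysine, was at 6.61, 10.8, 7.49 and 10.8 CPM with DMSO and at 18.9, 19.6, 20.3 and 24.6 CPM with MS275. The groups were well apart (2.38-fold, 1.249 ± 0.16, adjusted p = 0.00055). The reader DPF1 was 1.90-fold and the coactivator NCOA3 1.52-fold higher, while the acetyltransferase KAT2A was 1.58-fold lower (adjusted p = 0.0011). Of 7 class II and IV HDACs 1 rose (HDAC5) and 1 fell (HDAC7), both lost with a number left out. None (0) of 7 sirtuins was called.

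Among 28 Polycomb genes 3 rose (10.7%) and 1 fell (3.57%), against 7.83% and 6.55% of all genes tested. The gene that fell was PHF19, an accessory subunit of PRC2 (1.79-fold lower, −0.84 ± 0.09, adjusted p = 0.00023). Of 11 replacement histones 2 rose and 2 fell (18.2% each). H1F0, the linker histone of differentiated cells, was at 508, 553, 471 and 505 CPM with DMSO and at 742, 659, 709 and 618 CPM with MS275, all MS275 libraries above all DMSO libraries (1.34-fold, adjusted p = 0.0020). H2AFY2, a macroH2A, was 1.56-fold lower without overlap (adjusted p = 0.00077) and H2AFZ 1.22-fold lower. Of 70 replication-dependent histone genes 18 had enough counts and 0 was called, and as these transcripts carry no poly(A) tail, poly(A) selection leaves few of their reads. Of 28 HOX genes 6 fell (21.4%) and 0 rose, with a median of −0.19. Without numbers 1 to 4, 2, 3, 4 and 2 of them fell, and 1 rose without replicate 3. HOXB8 was at 63.0, 74.5, 95.0 and 67.2 CPM with DMSO and at 33.2, 42.9, 47.3 and 35.9 CPM with MS275, with a wide gap between the groups (1.88-fold lower, −0.91 ± 0.09, adjusted p = 8.7e-05). HOXB9 was 1.47-fold lower.

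Large gene families of mixed function had calls in both directions, to be read against 7.83% higher and 6.55% lower over all genes tested. Of 370 zinc finger genes 13 rose (3.51%) and 9 fell (2.43%), while 4, 5, 13 and 4 rose and 3, 4, 13 and 4 fell without numbers 1 to 4. Of 222 solute carriers 21 rose and 21 fell (9.46% each), with the bicarbonate transporter SLC4A8 4.64-fold and the amino acid transporter SLC7A8 2.11-fold higher and the folate carrier SLC19A1 1.63-fold lower. Without numbers 1 to 4, 6, 6, 23 and 10 of them rose and 9, 8, 20 and 12 fell. Of 34 potassium channels 2 rose (5.88%) and 1 fell (2.94%), with KCNS3 2.25-fold higher and KCNN4 1.62-fold lower. Of 21 tetraspanins 6 rose (28.6%) and 1 fell (4.76%), with TSPAN12 2.19-fold higher. Of 40 protocadherins 2 rose (5%) and 1 fell (2.5%), with PCDH1 1.71-fold higher and PCDH7 1.45-fold lower.

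To find what rising and falling genes shared beyond their RNA, H3K18ac and H3K18cr at their promoters were compared in the ChIP-seq libraries of the same line, dose and time. These libraries were not used to form the classes, and within each mark libraries of both treatments with the same number were set against each other. A peak within 1 kb of the start was found for 991 of 1156 matched rising genes (85.7%), 882 of 957 falling genes (92.2%) and 10006 of 12269 other genes (81.6%), and 414 peaks were shared by genes of different classes. The classes differed before treatment. In DMSO replicates 1 to 3 the median H3K18ac level (log2) was 6.85, 7.07 and 7.39 at rising genes, 7.67, 7.92 and 8.39 at falling genes and 7.18, 7.43 and 7.85 at genes that were not called. For H3K18cr it was 7.32, 7.20 and 6.99 at rising, 7.97, 7.88 and 7.65 at falling and 7.46, 7.39 and 7.20 at the other genes. The part of these starting levels in the differences of change was not tested. At promoters of rising genes the median log2 change of H3K18ac was 0.13, −0.49 and −0.83 in replicates 1 to 3. At falling genes it was −0.20, −0.91 and −1.37, and at genes that were not called −0.12, −0.78 and −1.16. Median promoter signal was thus below that with DMSO in all classes and pairs except at rising genes in replicate 1. The difference between rising and falling genes was 0.33, 0.41 and 0.54 (mean 0.43 ± 0.11 SD, n = 3, exact two-sided sign-flip test p = 0.25, the smallest that 3 pairs allow).

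For H3K18cr the medians were −0.53, −0.45 and −0.14 at rising genes, −0.89, −0.83 and −0.44 at falling genes and −0.76, −0.71 and −0.37 at the other genes. Rising genes exceeded falling genes by 0.35, 0.38 and 0.30 (mean 0.35 ± 0.04 SD, n = 3, exact sign-flip p = 0.25). Both marks kept the same order of the 3 classes in every replicate, but the sign-flip test cannot reach a p under 0.05 with 3 pairs. The deposited values are log2 read counts scaled to the largest library, and so they show changes at a promoter relative to the rest of each library. By gene span the medians varied less, from −0.72 in the shortest to −0.57 in the longest quintile for H3K18ac and from −0.64 to −0.54 for H3K18cr (mean of 3 replicates).

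**Figure D5:**
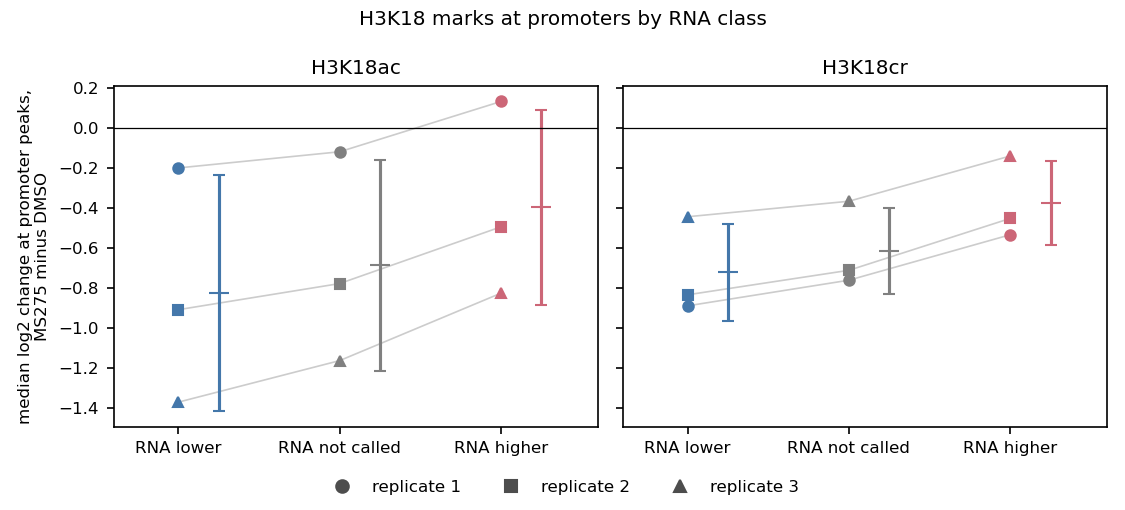
Median log2 change of H3K18ac and H3K18cr at promoter peaks of genes whose RNA fell, was not called or rose with MS275, in replicates 1 to 3 (symbols joined by lines), with mean and SD beside them. In each replicate and for both marks the value is highest at genes whose RNA rose and lowest at genes whose RNA fell, for instance −0.20, −0.12 and 0.13 for H3K18ac in replicate 1.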

How the data were processed

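Poly(A) RNA-seq of HCT116 cells was analysed in 4 DMSO and 4 MS275 libraries. Per the labels and the values, the authors deposited raw read counts per gene, not normalised. The submitters' processing notes name Trim Galore 0.4.2, TopHat2 2.0.12, Bowtie2 2.2.5 and the builds GRCh38 and GRCm38 for the series. The methods name HiSat2 and SEQMONK for RNA-seq reads mapped to the mouse genome. They do not say whether these or TopHat2 made the HCT116 counts. The kit was directional for HCT116, but the strand setting of the counting is not given in the sources used here. The ChIP-seq tables were deposited as log2 read counts per peak, scaled by the authors to the largest library.

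Counts were tested in edgeR 4.0.16 (R 4.3.3) with filterByExpr, TMM scaling and the quasi-likelihood test, with replicate number as a block and Benjamini-Hochberg adjustment at 0.05. The SE was the absolute log2 fold change over the square root of F. CPM values use library totals scaled by the TMM factors. The replicate number was the planned block. Same-numbered libraries correlated at 0.151 to 0.460 in deviations from the group means. The lowest of these, for number 2, was below the 0.239 and 0.219 between libraries numbered 2 and 4. The labels do not state what a number marks, and p-values measure the spread between these libraries. Of the genes tested, 14382 (96.13%) matched GENCODE 44 by gene ID, by symbol or, failing these, by coordinates within 10 bp. The script was tested on simulated data. limma 3.58.1 and DESeq2 1.42.0 gave alternatives, and Python 3.11.15 the summaries and plots.

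The text names the 10 largest changes per direction with a mean count of at least 100, up to 3 genes per list and direction, 5 abundant genes per direction, and long noncoding RNAs. Members and lists were chosen with earlier results of these data known. From these, examples were narrowed after their values were seen, chiefly to genes called with any replicate number left out. Some members of the lists are not reported here.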

Additional observations from a re-analysis of the deposited data

Results flagged for a closer look

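In 26 of 96 series of 4 libraries (27.1%) 1 library lay far from the other 3 by Dixon's criterion. Chance gives about 1 in 20 where series are independent. These series were not, as genes were picked by change or abundance and several series follow the mitochondrial share. Of the 26, DMSO replicate 3 lay apart in 12 and MS275 replicate 3 in 11. DMSO replicate 3 stood apart in IKBKG (22.1 CPM), TMEM80 (13.1 CPM), RP11-345J4.5 (23.1 CPM) and AC091729.9 (14.1 CPM), and MS275 replicate 3 in CDKN1A (294.8 CPM) and HDAC3 (132.8 CPM). Both did so in HOXA10-AS (55.1 CPM with DMSO and 24.6 CPM with MS275).

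In replicate 3 the mitochondrial transcripts were far above those of the other libraries. MT-ATP8 was at 3851 CPM with DMSO and 4775 CPM with MS275, MT-CO3 at 15092 and 16662 CPM and MT-ATP6 at 13003 and 13055 CPM. MT-CO2 was at 9837 and 10857 CPM and MT-ND4 at 16545 and 21389 CPM. The share of counts in mitochondrial genes was 9.28% and 10.3%, that of the 100 highest genes 28.5% and 29.8%, and the TMM factor of MS275 replicate 3 was 0.881. Outside replicate 3, SPP1 was high in MS275 replicate 2 (9.73 CPM) and MALL in MS275 replicate 1 (145.6 CPM), and GCNT3 was low in DMSO replicate 1 (2.37 CPM).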

How the results depend on the processing

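Without the replicate block 1 gene was called, 1 higher and 0 lower, so that the calls rest on the pairing by replicate number. With 1 number left out 968 to 2584 genes were called, 554 to 1257 higher and 393 to 1327 lower. Without replicate 3 more genes were lower than higher (48.6% higher against 54.4% with all pairs), and without numbers 1, 2 and 4 the share higher was 59.4%, 55.7% and 60.8%. DESeq2 called 2851 genes and voom 2840, RLE scaling gave 2198, upper quartile scaling 2093, no filter 2771 and a strict filter 2286. Under upper quartile scaling 1334 genes were higher and 759 lower (63.7% higher against 54.4%). Counts within lists and quintiles with a number left out were added after seeing the data, and list counts of 5 or fewer, other than that of cytosolic ribosomal proteins (4 lower with all pairs and 32 without replicate 3), fell by at most 4 and rose by at most 3. Leaving out a number moved these medians: ribosome biogenesis −0.20 to −0.13, cholesterol synthesis 0.18 to 0.20, Wnt 0.31 to 0.36, Notch 0.24 to 0.30, tubulins 0.14 to 0.21, neuronal genes 0.40 to 0.53 and the highest expression quintile −0.083 to −0.049. With upper quartile scaling splicing factors had a median of −0.13, cholesterol synthesis 0.23 and the highest expression quintile −0.036. Set against genes that were not called instead of against each other, H3K18ac differed by 0.29 at rising and −0.14 at falling genes, and H3K18cr by 0.24 and −0.11. No called gene was called in the opposite direction in these alternatives, and the cause of the moves was not tested.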

Other observations

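Genes were also grouped into families by symbol, and those given here were picked from many after their values were seen. Over all genes tested 7.83% rose and 6.55% fell. Of 60 RAB genes 10 rose (16.7%) and 2 fell (3.33%), and of 33 kinesins (KIF) 7 rose (21.2%) and 2 fell (6.06%). Of 33 DDX helicases 0 rose and 5 fell (15.2%), and of 53 translation initiation factors (EIF) 3 rose (5.66%) and 10 fell (18.9%). By chromosome, 3.91% of 1101 genes tested on chromosome 19 rose and 8.99% fell, while on chromosome 4 11.002% of 509 genes rose and 5.50% fell.

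Among values from 1 to 10, odd counts made up 57.6%, 78.2%, 51.5% and 74.4% in DMSO replicates 1 to 4 and 54.0%, 76.6%, 77.4% and 78.1% with MS275.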
